A study of Mus musculus with 9 samples.

Results

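Heme breakdown and iron handling were followed through 10 genes, chosen by name: the heme-degrading enzymes Hmox1, Blvra and Blvrb, the ferritin subunits Fth1 and Ftl1, the iron importers Tfrc and Slc11a2, the iron exporter Slc40a1, and the regulators Ireb2 and Aco1. The choice was made with earlier results of these data known. Of the 10 genes, 9 had at least 1 probe set assigned to that gene alone, out of 18193 such genes on the array. All 9 were above the low-signal level described under processing, as were 10613 genes in all, and the 9 had 18 probe sets plus 3 platform control sets for Tfrc. Ftl1 was named only in 3 probe sets that also name other genes, so no value is given for it. The cells were NIH 3T3, an established line of mouse embryonic fibroblasts, in 3 groups of 3 biological replicates. Each group was transduced with a retroviral vector carrying a short hairpin RNA (shRNA) against Ube2m, an shRNA against Ube2f, or a control shRNA, and RNA was taken 5 days later. All 9 growth labels speak of Ube2f expression in the cells, without saying whether a construct was added. Nothing in the labels says that replicates came from separate transductions, so p-values measure only the spread between these samples, which may be technical. Both targets code for E2 enzymes of neddylation, which attaches the small protein NEDD8 to cullins, the scaffolds of a family of ubiquitin ligases.

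Heme oxygenase, encoded by Hmox1, opens the heme ring and releases iron, carbon monoxide and biliverdin, which biliverdin reductases turn into bilirubin. Iron enters cells through transferrin receptor (Tfrc) and the divalent metal transporter (Slc11a2), is stored in ferritin (Fth1 and Ftl1) and leaves through ferroportin (Slc40a1). Both iron regulatory proteins, encoded by Aco1 and Ireb2, bind ferritin, ferroportin and Tfrc messages when iron is scarce. Several genes of heme breakdown, ferritin and ferroportin are known targets of NRF2, an antioxidant transcription factor that a cullin ligase marks for degradation, and BACH1, a heme-binding repressor, holds Hmox1 down.

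Promoter sequence is shown for the reductase genes Blvrb and Blvra, which share a name and an activity, since their RNA is compared across the groups. Each run is the 250 bases before an annotated start, from RefSeq on build GRCm38.p6, with capitals for the letters TGACNNNGC on either strand, the core of the antioxidant response element. The Blvrb run is at chr7:27447728-27447977 and the Blvra run at chr2:127070407-127070656, both on the + strand.
Blvrb: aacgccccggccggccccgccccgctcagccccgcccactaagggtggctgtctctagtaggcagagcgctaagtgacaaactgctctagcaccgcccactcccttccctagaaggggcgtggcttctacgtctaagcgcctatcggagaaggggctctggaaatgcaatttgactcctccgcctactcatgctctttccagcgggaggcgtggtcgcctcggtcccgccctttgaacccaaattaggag
Blvra: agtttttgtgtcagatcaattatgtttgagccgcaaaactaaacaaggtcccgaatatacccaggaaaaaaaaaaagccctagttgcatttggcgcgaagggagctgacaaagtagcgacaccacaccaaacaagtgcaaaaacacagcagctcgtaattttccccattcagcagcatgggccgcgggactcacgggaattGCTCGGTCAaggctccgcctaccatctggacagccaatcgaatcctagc
The Blvra run held 1 match, on the other strand, which begins 49 bases before the start, and the Blvrb run held none. Among 32851 such runs of 250 bases, 10.2% held a match. The table gave 10 runs for 7 of the 10 genes (Blvra, Blvrb, Fth1, Ftl1, Tfrc, Ireb2 and Aco1), and the Blvra match was the only one in them. The letters ACGTG, the core of the hypoxia response element, occurred on either strand in 16.6% of all runs. They were found in 1 of 2 runs for Tfrc, 228 bases before that start, and in 1 of 2 runs for Blvrb, 123 bases before that start, neither of which is printed.

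Arrays differed in ways that bear on some genes. The median probe set had a signal of 53.3 to 58.5 on the arrays of replicates 1 and 2, and 73.2, 73.5 and 64 on replicate 3 of the Ube2m, Ube2f and control groups. Control replicate 1 had a 3' to 5' beta-actin ratio of 1.82, against 1.24 to 1.35 on the other 8 arrays. The mean of 16 hybridization spike probe sets differed between groups, in opposite directions by replicate. In replicates 1 and 2 it was 5920 and 5954 with Ube2m shRNA, 5524 and 6548 with Ube2f shRNA, and 4404 and 4076 with control shRNA. In replicate 3 it was 4126, 4275 and 5852 in that order of groups. The part of this pattern in the differences from control was not tested. Of 10 fibroblast markers, 8 were above the low-signal level, and Lum and Fap were below it. Some of the 8 moved with the hairpins: Thy1 fell with Ube2m shRNA (log2 -0.70 against control, adjusted p = 0.0163), and Pdgfra rose with Ube2f shRNA (0.72 against control, adjusted p = 0.00997). For Ube2m over Ube2f shRNA 3 of the 8 were lower, namely Pdgfra (-0.96, adjusted p = 0.000578), Thy1 (-0.67, adjusted p = 0.0114) and Pdgfrb (-0.51, adjusted p = 0.00928), and their part in the results was not tested. The Ube2f signal averaged 132 ± 13.2 with Ube2f shRNA, 2956 ± 229 with Ube2m shRNA and 2539 ± 199 with control shRNA (SD, n = 3 each). No probe set of 1 gene carried the name Ube2m, so its knockdown was not checked.

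Hmox1, the gene of the first step of heme breakdown, was higher than control with Ube2m shRNA and lower with Ube2f shRNA. Hmox1 signal was 2559.7, 2940 and 2040.2 in Ube2m shRNA cells, 693.7, 880.7 and 551.4 in Ube2f shRNA cells, and 1086.2, 1066.6 and 1539.9 in control cells. No 2 of the 3 groups overlapped, with all Ube2m arrays at the top and all Ube2f arrays at the bottom. Hmox1 rose with Ube2m shRNA to 2513 ± 452, against 1231 ± 268 in control (SD, n = 3 each), a log2 change of 1.02 (SE 0.19, adjusted p = 0.00657). This was 2.04-fold, from limma on log2(signal + 16) with Benjamini-Hochberg adjustment over the 10613 genes tested. With Ube2f shRNA Hmox1 fell to 709 ± 165, against the same 1231 ± 268 in control, a log2 change of -0.79 (SE 0.19, adjusted p = 0.034). Both comparisons share the 3 control arrays. The Ube2f call rested on single arrays. It was lost without Ube2f replicate 1 (-0.79, adjusted p = 0.119) or replicate 3 (-0.62, adjusted p = 0.0792), without control replicate 1 (-0.87, adjusted p = 0.0717) or replicate 3 (-0.62, adjusted p = 0.0916), and without Ube2m replicate 1, which changes only the estimate of spread (adjusted p = 0.052). The size also moved with the replicate. For Ube2m shRNA against control it was 1.34 over replicates 1 and 2 and 0.40 in replicate 3, and for Ube2f shRNA against control it was -0.45 and -1.46. Control replicate 3 was the highest of the control arrays. Set against each other, Ube2m over Ube2f shRNA gave 1.81 (SE 0.19, adjusted p = 6.1e-05), with 1.79 over replicates 1 and 2 and 1.86 in replicate 3.

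**Figure D1:**
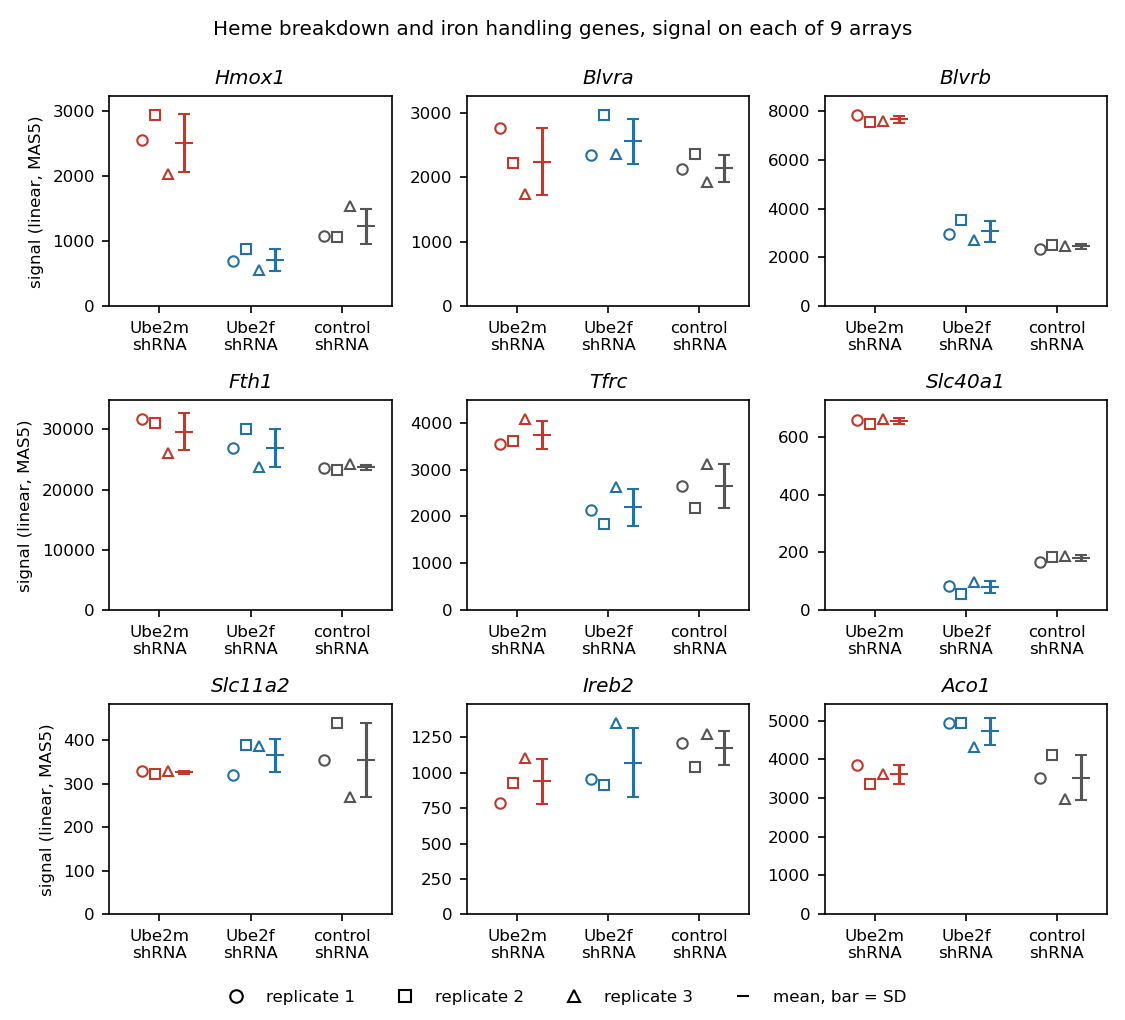
Signal on a linear scale (vertical axes start at 0) for the main probe set of each of the 9 measured genes on the 9 arrays, with Ube2m, Ube2f and control shRNA from left to right, markers for replicates 1, 2 and 3, and the mean with SD beside them. Blvrb and Slc40a1 stand clear of the other groups with Ube2m shRNA, at 7560 to 7830 and 643 to 661, while Blvra, Slc11a2 and Ireb2 overlap between all groups.

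Blvrb, a reductase that acts on biliverdin and on flavins, had the smallest p among these genes for Ube2m shRNA against control. Its signal was 7829.8, 7559.7 and 7605.4 with Ube2m shRNA, 2973.1, 3548.2 and 2709.9 with Ube2f shRNA, and 2357.5, 2520.3 and 2472.2 with control shRNA. The Ube2m arrays lay far above all others, and the 3 control arrays lay just under the 3 Ube2f arrays. Blvrb rose with Ube2m shRNA to 7665 ± 145, against 2450 ± 83.6 in control (SD, n = 3 each), a log2 change of 1.64 (SE 0.11, adjusted p = 3.49e-06) or 3.12-fold, which ranked 6 by p among the 10613 genes. It was 1.65 over replicates 1 and 2 and 1.62 in replicate 3. With Ube2f shRNA the log2 difference from control was 0.32 (SE 0.11, 95% interval 0.084 to 0.55, adjusted p = 0.115), which passed without Ube2f replicate 3 (0.41, adjusted p = 0.0493). For Blvrb, Ube2m over Ube2f shRNA gave 1.32 (SE 0.11, adjusted p = 7.63e-06).

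Blvra, the main biliverdin reductase of adult tissue, showed no difference that passed. Its signal was 2770.6, 2228.7 and 1736.7 with Ube2m shRNA, 2353.6, 2966 and 2359.1 with Ube2f shRNA, and 2133.9, 2357.5 and 1930.5 with control shRNA. All groups overlapped. The log2 difference was 0.05 for Ube2m shRNA against control (95% interval -0.3 to 0.4, adjusted p = 0.899) and 0.25 for Ube2f shRNA against control (95% interval -0.096 to 0.6, adjusted p = 0.415). The interval for Blvrb with Ube2m shRNA was 1.41 to 1.87, and the difference between the genes was not tested. The antioxidant core letters occur in the Blvra run printed above and not in the Blvrb run. Sequence farther from the starts was not searched for these letters, and their part in the RNA of either gene was not tested.

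Slc40a1, which encodes ferroportin, the iron exporter, showed the widest separation of the 9. Its signal was 658.5, 642.8 and 660.8 with Ube2m shRNA, 84.5, 57.2 and 96.8 with Ube2f shRNA, and 168.1, 182.7 and 187.8 with control shRNA. The groups did not overlap in any pair, in the same order as for Hmox1. Slc40a1 rose with Ube2m shRNA to 654 ± 9.8, against 180 ± 10.2 in control (SD, n = 3 each), a log2 change of 1.78 (SE 0.18, adjusted p = 0.000118) or 3.43-fold. It fell with Ube2f shRNA to 79.5 ± 20.3, against that control level, a log2 change of -1.06 (SE 0.18, adjusted p = 0.00556). Ube2m over Ube2f shRNA was 7.13-fold, a log2 value of 2.83 (SE 0.18, adjusted p = 1.56e-06), which ranked 9 by p among all genes. All 3 calls passed without any 1 of the 9 arrays. Ube2f signals were close to the low-signal level of 53.8, and the constant of 16 shrinks such folds. The gene's second probe set read 393.3, 328 and 330.6 with Ube2m shRNA, 66.3, 112.5 and 73.4 with Ube2f shRNA, and 106.6, 129.6 and 141.3 with control shRNA. It kept the rise (log2 difference 1.37), and its Ube2f arrays overlapped the control arrays (-0.52). Averaged over both probe sets, the log2 fold change for Ube2f shRNA against control was -0.79 (adjusted p = 0.0138).

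Ferritin heavy chain, encoded by Fth1, is the subunit that oxidises iron for storage. Its signal was 31648.5, 31059.5 and 26030.1 with Ube2m shRNA, 26889.5, 29964 and 23788.6 with Ube2f shRNA, and 23521.2, 23262.8 and 24196.4 with control shRNA. All Ube2m arrays lay above all control arrays, and the Ube2f arrays overlapped both groups. The difference did not pass, at 29579 ± 3088 with Ube2m shRNA against 23660 ± 482 in control (SD, n = 3 each), a log2 value of 0.32 (SE 0.11, 95% interval 0.071 to 0.56, adjusted p = 0.101) for Ube2m shRNA against control. It passed without Ube2m replicate 3 (0.41, adjusted p = 0.0458). For Ube2f shRNA against control the log2 difference was 0.18 (95% interval -0.068 to 0.42, adjusted p = 0.415). These signals lay near the top of the range, since the highest of any probe set on an array was 33154.8 to 42858.2 with Ube2m shRNA, 34528.8 to 46547.1 with Ube2f shRNA and 34398.7 to 44699.6 with control shRNA. In replicate 3 that highest signal was 33154.8 with Ube2m shRNA, 34528.8 with Ube2f shRNA and 44699.6 with control shRNA, whereas in replicates 1 and 2 control was lowest. For Ube2m shRNA against control the Fth1 difference was 0.42 over replicates 1 and 2 and 0.11 in replicate 3. The part of the scale's upper end in the size of this difference was not tested. The other Fth1 probe set gave 0.29 and 0.13 for the Ube2m and Ube2f comparisons with control.

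Tfrc, the receptor that takes up transferrin-bound iron, was higher with Ube2m than with Ube2f shRNA. Its main probe set read 3541.1, 3608.4 and 4074.2 with Ube2m shRNA, 2141.6, 1837.4 and 2619.2 with Ube2f shRNA, and 2654.3, 2174 and 3124 with control shRNA. All Ube2m arrays lay above the rest, and Ube2f arrays overlapped control arrays. Ube2m over Ube2f shRNA gave a log2 change of 0.77 (SE 0.15, adjusted p = 0.00432) or 1.71-fold, which passed without any 1 of the 9 arrays. Against control, Ube2m shRNA gave 0.51 (SE 0.15, 95% interval 0.18 to 0.84, adjusted p = 0.054), just short of the threshold. It passed without control replicate 3 (0.63, adjusted p = 0.0238) and, with the same fold, without Ube2f replicate 2 (adjusted p = 0.0462) or replicate 3 (adjusted p = 0.0291). It also passed with replicate 3, whose arrays had the higher median signals, as a batch term (adjusted p = 0.00281) and in replicates 1 and 2 alone (0.57, adjusted p = 0.00715), with 0.38 in replicate 3. Ube2f shRNA against control gave -0.27 (95% interval -0.6 to 0.061, adjusted p = 0.357).

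The 5 other Tfrc probe sets, including 3 that the platform places along the transcript as controls, gave larger differences for Ube2m shRNA against control, with log2 values of 0.99 to 1.67. The Ube2m and control arrays did not overlap in any of them. Their size moved with control replicate 1, the array with the high beta-actin ratio. The set at the 5' end of Tfrc read 13.4 there against 117.8 and 140.7 on the other control arrays, and the ratio of 3' to 5' Tfrc signal was 12.2 there against 1.94 to 3.71 on the other 8 arrays. Without that array, a setting looked at per probe set after these values were seen, the 5 sets gave 0.62 to 0.99, and the main set, which hardly moved, gave 0.52. For Ube2f shRNA against control the 5 sets gave 0.083 to 0.37 with that array and -0.40 to -0.083 without it, so that their direction turned.

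**Figure D2:**
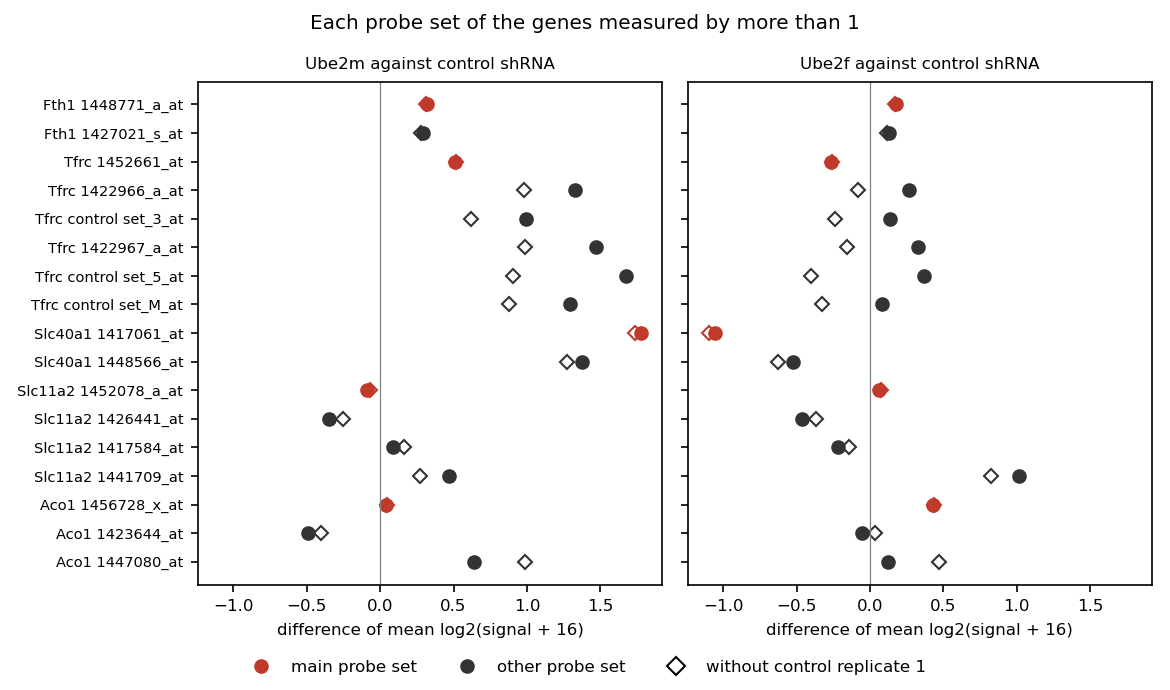
Difference of mean log2(signal + 16) from control shRNA for every probe set of the 5 genes with more than 1, for Ube2m shRNA (left) and Ube2f shRNA (right), with circles for all arrays, red for the main probe set, and open diamonds without control replicate 1. The Tfrc sets other than the main one move left without that array, from 0.99 to 1.67 down to 0.62 to 0.99 for Ube2m shRNA, and the Slc40a1 sets move little.

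Slc11a2, the transporter that carries iron over the endosomal membrane, showed no difference that passed. Its main probe set read 328.2, 322.5 and 327.7 with Ube2m shRNA, 319.7, 388.3 and 385.1 with Ube2f shRNA, and 354.8, 438.3 and 268.8 with control shRNA. The log2 difference from control was -0.09 for Ube2m shRNA (95% interval -0.46 to 0.29, adjusted p = 0.817) and 0.06 for Ube2f shRNA (95% interval -0.31 to 0.44, adjusted p = 0.89). Its 4 probe sets disagreed for Ube2f shRNA against control. One of low signal, at 103, 112.4 and 94.4 with Ube2f shRNA against 28.7, 35.3 and 72.4 with control shRNA, was 1.02 higher on the log2 scale with Ube2f shRNA, while another was -0.47.

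Of the iron regulatory proteins, Ireb2 (IRP2, which is degraded when iron is plentiful) read 783.9, 931.2 and 1105.7 with Ube2m shRNA, 956.8, 911.8 and 1350.4 with Ube2f shRNA, and 1213.7, 1038.4 and 1276 with control shRNA. The groups overlapped in every pair. The log2 difference was -0.33 for Ube2m shRNA against control (95% interval -0.69 to 0.036, adjusted p = 0.255) and -0.15 for Ube2f shRNA against control (95% interval -0.51 to 0.22, adjusted p = 0.681).

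Aco1 (IRP1, which is an aconitase when it holds an iron-sulfur cluster) read 3844.9, 3365.9 and 3616.2 with Ube2m shRNA, 4926.5, 4930.2 and 4322.1 with Ube2f shRNA, and 3522.8, 4103.9 and 2963.2 with control shRNA. The Ube2f arrays lay above all others. The log2 difference for Ube2f shRNA against control was 0.43 (SE 0.12, 95% interval 0.16 to 0.7, adjusted p = 0.068), which passed without control replicate 2 (0.54, adjusted p = 0.0329) and with replicate 3 as a batch term (adjusted p = 0.0105). It did not pass with the gene's probe sets averaged (0.17, adjusted p = 0.665). Ube2m over Ube2f shRNA gave -0.39 (SE 0.12, adjusted p = 0.0522), which passed without Ube2f replicate 3 (-0.45, adjusted p = 0.0409) and, with the same fold, without control replicate 2 (adjusted p = 0.0377) or replicate 3 (adjusted p = 0.0252). With the replicate number as a block this comparison passed (adjusted p = 0.0159), and with probe sets averaged it gave -0.10 (adjusted p = 0.768). This probe set carries a suffix of sets that may match several transcripts. The next set read 716, 577 and 812 with Ube2m shRNA, 991.5, 920.3 and 930.3 with Ube2f shRNA, and 1103.9, 955.3 and 896.5 with control shRNA, so that Ube2m arrays were lowest and Ube2f arrays overlapped control arrays (log2 difference -0.05). With that set in its place, Aco1 was lower with Ube2m shRNA than in control (log2 fold change -0.49, adjusted p = 0.0456), whereas the main set gave 0.04 (adjusted p = 0.882).

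**Figure D3:**
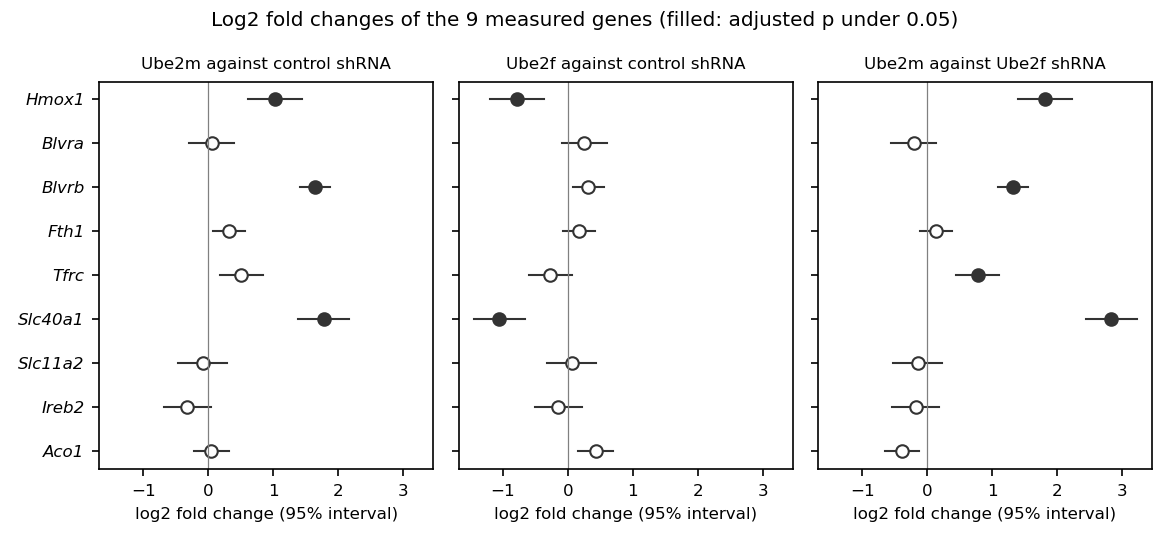
Log2 fold changes with 95% intervals for the 9 measured genes in the comparisons Ube2m against control, Ube2f against control and Ube2m against Ube2f shRNA, filled where the limma adjusted p is under 0.05. Hmox1 and Slc40a1 lie right of 0 for Ube2m shRNA (1.02 and 1.78) and left of 0 for Ube2f shRNA (-0.79 and -1.06), while Blvrb is filled only where Ube2m shRNA is involved.

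The 9 genes were chosen with earlier results of these data known, so the counts below describe them and do not test them as a set. Over the 9 genes, 3 rose and 0 fell with Ube2m shRNA against control, beside 3.59% higher and 6.12% lower over all genes tested. The 3 were Hmox1, Blvrb and Slc40a1, and before adjustment (limma p under 0.05) 5 were higher and 0 lower, beside 9.27% and 15.5% of all genes. With Ube2f shRNA against control 0 rose and 2 fell, Hmox1 and Slc40a1, beside 2.23% higher and 2.96% lower over all genes (before adjustment 2 higher and 2 lower by limma, beside 9.75% and 10.5% of all genes). For Ube2m over Ube2f shRNA 4 were higher and 0 lower, these 3 with Tfrc, beside 6.37% higher and 9.38% lower (before adjustment 4 higher and 1 lower, beside 11.4% and 17.3% of all genes). The arrays of the groups compared did not overlap for 5, 4 and 5 of the 9 genes, against 29.7%, 23.2% and 34.4% of all genes. With replicate 3 as a batch term Tfrc (0.51, adjusted p = 0.00281), Fth1 (0.32, adjusted p = 0.0328) and Ireb2 (-0.33, adjusted p = 0.0495) also passed for Ube2m shRNA against control, and Blvrb (0.32, adjusted p = 0.0344) and Aco1 (0.43, adjusted p = 0.0105) for Ube2f shRNA against control. The median log2 fold change of the 9 was 0.32, 0.06 and 0.14, beside -0.04, 0.01 and -0.04 over all genes. The first 2 comparisons share control arrays. In bulk RNA, fewer cells with a transcript and less of it per cell cannot be told apart. Of 11 macrophage markers with a probe set, a cell type rich in Hmox1 and ferroportin, 3 (Csf1r, Lyz2 and Cd14) were above the low-signal level, and the summed signal was 955 to 1129 with Ube2m shRNA, 824 to 884 with Ube2f shRNA and 986 to 1022 with control shRNA. Of these 3, Cd14 was higher with Ube2m than with Ube2f shRNA (0.52, adjusted p = 0.0294), the direction of Hmox1 and Slc40a1. Csf1r went the same way in that comparison, at 0.65, and did not pass after adjustment. Lyz2 went the other way, at -0.42 for Ube2m over Ube2f shRNA (adjusted p = 0.113). For Ube2f shRNA against control Csf1r was -0.68 (adjusted p = 0.0899). The defining markers Adgre1, Ptprc, Itgam and Cd163 were below that level, and the part of such cells in the results was not tested. None of 5 erythroid and 4 hepatocyte markers was above the low-signal level, and 2 of 4 epithelial markers were. The summed epithelial signal was 304.1 to 341.5 with Ube2m shRNA, 369.6 to 443.1 with Ube2f shRNA and 228.5 to 357.6 with control shRNA. The 2 markers did not pass after adjustment in any comparison, with up to 0.87 for Ube2f shRNA against control. Their part in the results was not tested.

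Around these genes, 54 other heme and iron genes were tested of 73 listed in 6 groups. With Ube2m shRNA against control 3 rose and 1 fell (5.56% and 1.85%), with Ube2f shRNA against control 1 rose and 3 fell (1.85% and 5.56%), and for Ube2m over Ube2f shRNA 6 were higher and 4 lower (11.1% and 7.41%). The shares over all genes are those given beside the 9 genes. These lists too were chosen with earlier results of these data known, so their shares are descriptive. When arrays were centred on their medians, 1, 2 and 4 of the 54 were called in these comparisons. With the replicate number as a block, 21 were called for Ube2m over Ube2f shRNA, with Cul1 (-0.28, adjusted p = 0.0311) and Bach1 (0.34, adjusted p = 0.044) among those gained. Over all genes the block gave 2493 calls in that comparison, beside 1672 without it. The median log2 fold change was -0.02, -0.02 and 0.00. The members that passed are described by group, with genes outside the threshold given by value.

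Among 7 tested genes of other heme handling, 2 rose with Ube2m shRNA against control (28.6%, beside 3.59% of all genes). With Ube2f shRNA against control 1 fell (14.3%, beside 2.96%). Ube2m over Ube2f shRNA had 3 higher (42.9%, beside 6.37%). Slc48a1, which carries heme out of lysosomes, read 4494.6, 4452.1 and 4468.7 with Ube2m shRNA, 1975.9, 2369.1 and 1762.2 with Ube2f shRNA, and 3338.1, 3285.9 and 2882.1 with control shRNA. The groups did not overlap, in the same order as for Hmox1 and Slc40a1. It rose with Ube2m shRNA (log2 fold change 0.5, SE 0.12, adjusted p = 0.0204) and fell with Ube2f shRNA (-0.64, SE 0.12, adjusted p = 0.00809). The rise was lost without Ube2m replicate 1 (0.49, adjusted p = 0.0764) or replicate 2 (0.5, adjusted p = 0.075), or control replicate 3 (0.43, adjusted p = 0.0524). Abcb6, a porphyrin transporter, read 1095.6, 1040.7 and 936.2 with Ube2m shRNA, 392.1, 453.5 and 272.5 with Ube2f shRNA, and 718.8, 569.1 and 430.1 with control shRNA. It rose with Ube2m shRNA (0.85, SE 0.2, adjusted p = 0.021), and the Ube2f difference from control was -0.6 (adjusted p = 0.111), and these groups overlapped. The rise was lost without Ube2m replicate 1 (0.8, adjusted p = 0.0831) or replicate 2 (0.84, adjusted p = 0.0758), or control replicate 2 (0.86, adjusted p = 0.0514) or replicate 3 (0.66, adjusted p = 0.0535), and the Ube2f difference passed without control replicate 3 (-0.78, adjusted p = 0.0449). Ube2m over Ube2f shRNA was 1.14 for Slc48a1 (adjusted p = 4.89e-05), 1.45 for Abcb6 (adjusted p = 0.000468) and 0.5 for the heme-binding membrane protein gene Pgrmc1 (adjusted p = 0.00679), and all of these passed without any 1 of the 9 arrays. Centring arrays on their medians ended the calls of Pgrmc1 (0.48, adjusted p = 0.166), of Slc48a1 against control with Ube2m shRNA (0.41, adjusted p = 0.281) and Ube2f shRNA (-0.71, adjusted p = 0.109), and of Abcb6 against control (0.76, adjusted p = 0.135).

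**Figure D4:**
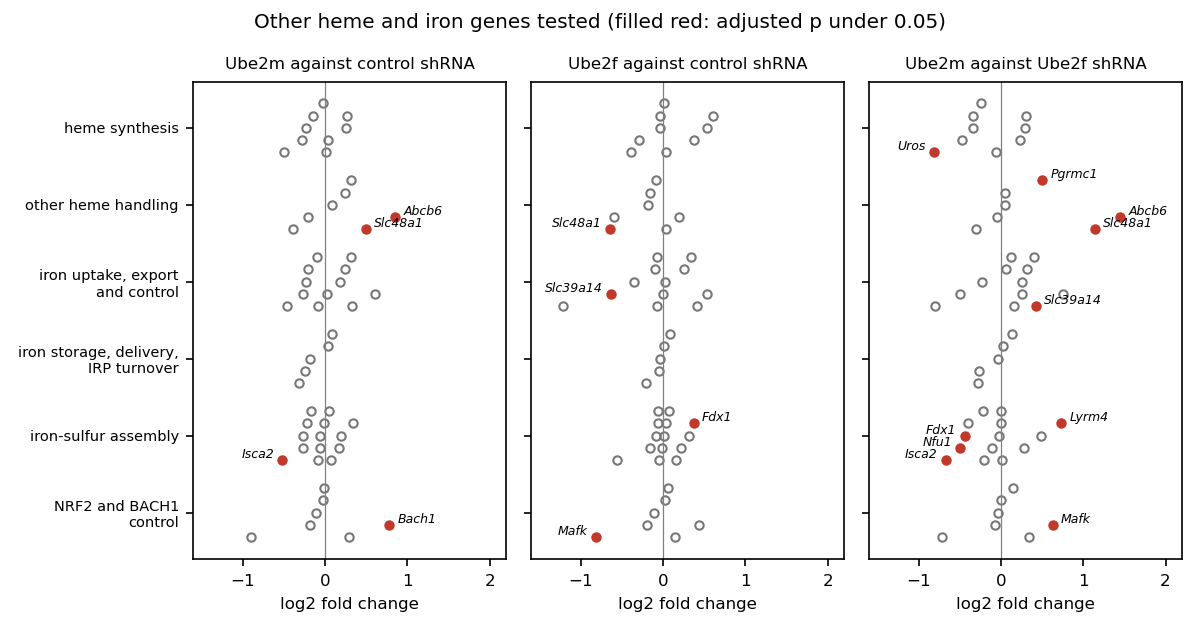
Log2 fold changes of the 54 other heme and iron genes tested, by group, in the 3 comparisons, in red with a name where the limma adjusted p is under 0.05 and open otherwise. Slc48a1 lies right of 0 for Ube2m shRNA (0.5) and left of 0 for Ube2f shRNA (-0.64), and most other genes lie near 0.

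Heme synthesis showed no call against control for either hairpin by limma among 9 tested genes. Of all genes, 3.59% rose and 6.12% fell with Ube2m shRNA and 2.23% and 2.96% with Ube2f shRNA, so absent calls among so few genes say little. The unadjusted p was under 0.05 for 0 higher and 2 lower genes with Ube2m shRNA (all genes 9.27% and 15.5%) and for 2 higher and 2 lower genes with Ube2f shRNA (all genes 9.75% and 10.5%). Ube2m over Ube2f shRNA had 1 lower (11.1%, beside 9.38% of all genes). Uros, uroporphyrinogen synthase, was lower with Ube2m than with Ube2f shRNA, at 253.9, 229.6 and 194.3 with Ube2m shRNA against 382, 478.4 and 369.9 with Ube2f shRNA (log2 fold change -0.82, SE 0.16, adjusted p = 0.00413), and passed without any 1 of the 9 arrays. It was lost with all its probe sets averaged (-0.48, adjusted p = 0.146). Abcb10, a mitochondrial transporter that heme synthesis needs, was -0.38 for Ube2f shRNA against control (adjusted p = 0.0819). Of 12 tested genes of iron uptake, export and its control, 1 fell with Ube2f shRNA against control (8.33%, beside 2.96% of all genes). Ube2m over Ube2f shRNA had 1 higher (8.33%, beside 6.37%). Slc39a14, an importer of zinc and of iron not bound to transferrin, fell with Ube2f shRNA to 919.5, 925.9 and 1079.5, against 1583.3, 1327.1 and 1645 in control (-0.63, SE 0.13, adjusted p = 0.0153). That call was lost without Ube2f replicate 1 (-0.59, adjusted p = 0.0785) or replicate 2 (-0.59, adjusted p = 0.057) or control replicate 1 (-0.6, adjusted p = 0.0597). With all its probe sets averaged Slc39a14 gave -0.13 (adjusted p = 0.769). Ube2m over Ube2f shRNA gave 0.43 for Slc39a14 (adjusted p = 0.0415), lost without Ube2m replicate 1, 2 or 3 or Ube2f replicate 1 or 2 (0.33 to 0.49, adjusted p of 0.0624 to 0.144) and with arrays centred on their medians (0.40, adjusted p = 0.099). Tmprss6, a protease that lowers hepcidin, was -1.22 for Ube2f shRNA against control (adjusted p = 0.0895). Its signals were 12 to 52.9 with Ube2f shRNA, all under the low-signal level, against 74.8 to 106.2 in control. Tmprss6 was tested because its mean log2 over all arrays, 6.21, was just above that level, and the control arrays helped to raise this mean. Of 5 tested genes of iron storage, delivery and IRP turnover none passed by limma in any comparison, while the unadjusted p was under 0.05 for 0 higher and 2 lower genes for Ube2m shRNA against control, 0 and 1 for Ube2f shRNA against control, and 0 and 2 for Ube2m over Ube2f shRNA. The shares over all genes for such p are those given for heme synthesis and, for Ube2m over Ube2f shRNA, 11.4% and 17.3%. Past the adjusted threshold the shares over all genes are those given for heme synthesis and, for Ube2m over Ube2f shRNA, 6.37% higher and 9.38% lower. At such shares, absent calls among 5 genes say little about the group. The lowest p there belonged to Cul1, the scaffold of the ligase that degrades IRP2 (Ube2m against control -0.32, adjusted p = 0.108), and Pcbp1, an iron chaperone for ferritin (-0.24, adjusted p = 0.131).

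Of 14 tested genes of iron-sulfur cluster assembly, 1 fell with Ube2m shRNA against control (7.14%, beside 6.12% of all genes). With Ube2f shRNA against control 1 rose (7.14%, beside 2.23%). Ube2m over Ube2f shRNA had 1 higher (7.14%, beside 6.37%) and 3 lower (21.4%, beside 9.38%). Isca2, a scaffold for mitochondrial clusters, fell with Ube2m shRNA to 920.2, 1110.4 and 919.9, against 1369.8, 1496.3 and 1371.7 in control (log2 fold change -0.52, SE 0.12, adjusted p = 0.0219). The call was lost without Ube2m replicate 1 (-0.48, adjusted p = 0.0968) or replicate 3 (-0.48, adjusted p = 0.06), or control replicate 1 (-0.54, adjusted p = 0.0564) or replicate 2 (-0.48, adjusted p = 0.067). Fdx1, a ferredoxin, was 0.37 for Ube2f shRNA against control at an adjusted p of 0.0497, which was lost without any 1 array other than Ube2f replicate 3, at 0.32 to 0.38 and adjusted p of 0.0589 to 0.178. For Ube2m over Ube2f shRNA the values were -0.67 for Isca2 (adjusted p = 0.00319), -0.44 for Fdx1 (adjusted p = 0.00991), -0.49 for the cluster carrier gene Nfu1 (adjusted p = 0.0459) and 0.73 for Lyrm4, a partner of the sulfur donor enzyme (adjusted p = 0.0101). Nfu1 was lost without Ube2m replicate 1, 2 or 3, Ube2f replicate 1 or 2, or control replicate 1 (-0.54 to -0.41, adjusted p of 0.057 to 0.172), and Lyrm4 without Ube2m replicate 2 (0.63, adjusted p = 0.0544). Centring arrays on their medians ended every call of this group, with an adjusted p of 0.106 for Isca2 and 0.487 for Fdx1 against control, and for Ube2m over Ube2f shRNA 0.0515 for Isca2, 0.148 for Fdx1, 0.247 for Nfu1 and 0.0999 for Lyrm4.

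Among 7 genes of NRF2 and BACH1 control, 1 rose with Ube2m shRNA against control (14.3%, beside 3.59% of all genes). With Ube2f shRNA against control 1 fell (14.3%, beside 2.96%), and Ube2m over Ube2f shRNA had 1 higher (14.3%, beside 6.37%). Bach1 rose with Ube2m shRNA, at 959.6, 1001.9 and 1025.8 against 502.4, 551.2 and 679 in control (log2 fold change 0.78, SE 0.13, adjusted p = 0.00269), and read 802.2, 732 and 816.8 with Ube2f shRNA (0.44, adjusted p = 0.0689). The Bach1 groups did not overlap in any pair, with Ube2f arrays between the others. The part of BACH1 in the Hmox1 values was not tested. The Ube2m call passed without any 1 of the 9 arrays, and the Ube2f difference passed without control replicate 3 (0.56, adjusted p = 0.0243). With all its probe sets averaged Bach1 gave 0.80 for Ube2m shRNA against control and did not pass (adjusted p = 0.227). Mafk, a small MAF partner of both factors, fell with Ube2f shRNA to 283, 314.1 and 292, against 627.8, 487.2 and 490.5 in control (-0.81, SE 0.14, adjusted p = 0.00694), and passed without any 1 array. For Mafk, Ube2m over Ube2f shRNA was 0.63 (adjusted p = 0.0108), lost without Ube2m replicate 2 (0.59, adjusted p = 0.0525) and with arrays centred on their medians (0.61, adjusted p = 0.0545).

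The genes most like the called members over the 9 arrays were found by the root-mean-square difference of log2 profiles, each with its own mean taken off. For Blvrb they were Ptgr1, a prostaglandin and leukotriene reductase gene (0.108), Procr (0.157) and the alcohol dehydrogenase gene Adh7 (0.218), beside an SD of Blvrb over the arrays of 0.76. For Slc40a1 they were Slc22a23 (0.249), the cytochrome P450 gene Cyp1b1 (0.267) and Flacc1 (0.297), beside an SD of 1.25. For Hmox1 they were Rassf6 (0.216), Gnb4 (0.257) and Fam110c (0.27), beside an SD of 0.828, and for Tfrc they were Thbs1 (0.108), Fst (0.113) and Eaf1 (0.12), beside an SD of 0.39. Ptgr1 averaged 13392 with Ube2m shRNA, 5254 with Ube2f shRNA and 4311 with control shRNA, the order of Blvrb. Cyp1b1 averaged 2228 with Ube2m shRNA, 266 with Ube2f shRNA and 652 with control shRNA, the order of Slc40a1.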

How the data were processed

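RNA of 9 NIH 3T3 cultures was measured on 1-colour Affymetrix arrays. The authors deposited 1 linear intensity for each of 45101 probe sets, made with MAS5, per the submitters' processing notes. No version of MAS5 or setting is stated in these sources. The mean signal without the top and bottom 2% was 500 on every array, so 1 factor scaled each array. Arrays have no counted depth, and their number limits the precision.

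Of the probe sets, 34945 named 1 gene, and 932 naming several, 9160 without a name and 64 platform controls were left out. Per gene the probe set with the highest mean log2(signal + 16) was used, and genes were tested if that mean reached the median of all non-control probe sets (6.12, a signal of 53.8). limma 3.58.1 (R 4.3.3; eBayes with trend, prior degrees of freedom 6.55) fitted 1 mean per group on all 9 arrays, two-sided, with Benjamini-Hochberg adjustment over 10613 genes and a threshold of 0.05. An exact permutation test was not used, since with 3 arrays a group its smallest p is 0.1. The fit was tested on simulated data. Ube2m and Ube2f arrays of the same replicate number correlated in their deviations from group means (r of 0.201, 0.211 and 0.557). Ube2m replicate 1 correlated with Ube2f replicate 2 at 0.276. No comparison was fitted as pairs in the main results, and the replicate number as a block was an alternative. Alternatives changed the constant, scaling, low-signal filter, choice of probe sets, arrays and terms in the fit. The named genes are all members, the pathway genes past the threshold in any comparison (or the 2 of smallest p of a list), and the 3 genes most like each called member. Members and lists were chosen with earlier results of these data known. Promoters came from RefSeq (GRCm38.p6).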

Additional observations from a re-analysis of the deposited data

How the results depend on the processing

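For Hmox1 and Blvrb with Ube2m shRNA against control, Slc40a1 against control with either hairpin, and Hmox1, Blvrb, Slc40a1 and Tfrc for Ube2m over Ube2f shRNA, the call and direction were kept under all 20 alternatives, with log2 fold changes of 0.90 to 1.34, 1.55 to 1.66, 1.56 to 1.86, -1.20 to -0.77, 1.65 to 1.98, 1.23 to 1.43, 2.33 to 3.06 and 0.65 to 0.99 in that order, and adjusted p of up to 0.0499 for Hmox1 with Ube2m shRNA against control. Hmox1 with Ube2f shRNA kept its call in 12 of 20 (-0.95 to -0.45, adjusted p of 0.0114 to 0.119), and lost it with arrays centred on their medians (-0.85, adjusted p = 0.115), without the low-signal filter (adjusted p = 0.0517) and with probe sets averaged (adjusted p = 0.0554). Aco1 with Ube2m shRNA turned to -0.49 when sets with suffix _s, _x or _a were left out, a setting that leaves Fth1 no value.

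Of the 9 members, 3, 2 and 4 were called for Ube2m against control, Ube2f against control and Ube2m over Ube2f shRNA. Leaving out single arrays gave 3 to 4, 1 to 3 and 4 to 5. With replicate 3 as a batch term the first 2 counts were 6 and 4, and in replicates 1 and 2 alone 5 and 5. The second was 1 with median centring, without the filter and with probe sets averaged. Of the other heme and iron genes, 4, 4 and 10 were called, with 1 to 4, 2 to 5 and 6 to 11 when single arrays were left out, 1, 2 and 4 with median centring, 10, 11 and 23 with the batch term, and 8 and 9 for the comparisons with control in replicates 1 and 2. When the suffixed sets were left out the first was 2. Over all genes the counts were 1031, 551 and 1672, with 388 to 1177, 195 to 583 and 1017 to 1813 when single arrays were left out, 525, 222 and 868 with median centring, 607, 271 and 1109 with probe sets averaged, 2118, 1461 and 2714 with the batch term, 1747 and 1121 for the comparisons with control in replicates 1 and 2, and 350 for Ube2f against control with only those groups. With median centring the calls were 124 higher and 401 lower for Ube2m against control, beside 381 and 650 without it, and 50 and 172 for Ube2f against control, beside 237 and 314. The causes were not tested.

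The groups share replicate numbers. Same-numbered control arrays and hairpin arrays correlated at -0.0046 to 0.35 in their deviations from group means. The main fit took no comparison as pairs. In 10 of 18 combinations of an array with another group, the best match had the same number. Replicate 3 stood apart, since its arrays correlated across groups at 0.317, 0.349 and 0.557, and at -0.387 to -0.0634 with arrays of other numbers. Across groups, arrays of replicates 1 and 2 correlated at -0.0046 to 0.211 with the same number and at 0.0882 to 0.276 with the other of the 2 numbers. With the replicate block the members called were 4, 4 and 5, the other heme and iron genes 9, 11 and 21, and all genes 1866, 1225 and 2493. The block added calls for Tfrc (adjusted p = 0.0029), Pgrmc1 (0.0384) and Cul1 (0.0227) with Ube2m shRNA against control, and for Blvrb (0.0456), Aco1 (0.0185), Abcb6 (0.0153), Abcb10 (0.0381), Tmprss6 (0.022), Lyrm4 (0.00728) and Bach1 (0.0246) with Ube2f shRNA against control, and ended none of a named gene.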
